A study of Arabidopsis thaliana with 8 samples.

Results

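The Agilent array used to compare voz1 voz2 double mutant seedlings with wild type carries 8812 non-control probes that are named by a place in the genome and not by a gene. They are the probes whose systematic name in the scanner output is a chromosome with a start and an end, and they make up 8812 of the 37478 non-control probes. Another 26236 probes are named by an AT locus and 2430 by a sequence accession or another name. Of the position-named probes, 2281 passed the filter of being well above background on 4 or more of the 8 arrays, and these were tested.

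The Cy3-labelled total RNA came from whole seedlings of Arabidopsis thaliana, with 4 arrays of the voz1 voz2 double mutant and 4 of wild type Col-0. The labels give both genotypes the Col-0 background and an age of 14 days, on agar medium at 22 °C under days of 16 h light and 8 h dark, untreated. Neither the alleles nor the number of seedlings per array is stated in the labels. They also do not say that replicates were grown separately, and p-values then reflect only how far these samples differ, in part perhaps for technical reasons. VOZ1 and VOZ2 are plant-specific zinc-finger transcription factors related to the NAC family, known to promote flowering downstream of phytochrome B. Plant genomes are also transcribed outside annotated protein-coding genes, into long noncoding RNAs, antisense RNAs, transposon RNAs and unannotated exons or transcript ends. A probe placed by genome position reads RNA that matches its sequence at that place or at any near-identical copy elsewhere.

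The check of the genotype came from the locus-named probes. VOZ2 had levels of -3.93, -4.90, -3.84 and -4.36 in voz1 voz2 seedlings, against 1.52, 1.09, 1.83 and 1.50 in wild type, and VOZ1 averaged -1.01 ± 0.17 in voz1 voz2 and 0.49 ± 0.06 in wild type (SD, n = 4 each). Levels here and below are log2 signals relative to each array's 75th percentile of non-control probes. Both differences passed the threshold, at a limma adjusted p of 1.0e-04 for VOZ2 and 0.0015 for VOZ1. The sources used here do not place their probes relative to the disruptions. Among seedling markers, 5 of 5 genes of green tissue and 7 of 7 of root passed the same filter, as did 3 of 3 flower genes, and 0 of 3 seed genes did. The mean level of the root genes per array was -0.068 to 0.57 in voz1 voz2 and -0.98 to -0.040 in wild type, and that of the flower genes was -5.69 to -4.17 in voz1 voz2 and -4.54 to -3.14 in wild type. Their part in the results below was not tested. The arrays lay on 2 slides, each with a scan of its own and 2 arrays of each genotype. On both slides voz1 voz2 took array positions 2 and 4 and wild type positions 1 and 3, so array position and genotype cannot be told apart.

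The position-named probes cover the 5 nuclear chromosomes, with 2165 on chromosome 1, 1425 on chromosome 2, 1783 on chromosome 3, 1250 on chromosome 4 and 2189 on chromosome 5. Nearly all (8696) span 60 positions. Another 97 span 61 to 969 positions, with a median of 169, and 19 span under 60, the shortest 45. Coordinates are printed as the scanner output gives them, lower position first. The sources used here do not give their genome build, so no gene, exon, intron or UTR is assigned to them, and the files hold no probe sequences to print. In 4666 names the lower coordinate comes first, called the forward orientation below, and in 4146 the higher one does, called reverse. Whether that order marks the strand of the RNA detected is not stated.

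Most position-named probes gave no signal well above background. This was so on every array for 5009 of the 8812, while 1522 reached that level on 1 to 3 arrays and 1316 on all 8. The share tested was 25.9%, against 81.5% of the locus-named probes and 58.4% of the accession-named probes. Per array the share of position-named probes well above background was 21.6%, 32.1%, 20.1% and 29.7% in voz1 voz2 replicates 1 to 4, against 27.2%, 29.1%, 18.0% and 29.7% in wild type replicates 1 to 4. The genotypes overlapped, and the 4 arrays of slide 2, which held replicates 2 and 4, were above the 4 arrays of slide 1. Of the tested probes, 148 were well above background on all 4 arrays of slide 2 and on none of slide 1, and 0 the other way round. Whether slide-wide labelling or scanning has a part in this was not tested. By chromosome the share tested was 29.0%, 27.5%, 24.3%, 23% and 24.7% for chromosomes 1 to 5, and by orientation 25.5% for forward and 26.3% for reverse. Of the 97 long spans 37 were tested, and of the 19 short ones 11 were, with 0 of these 48 past the limma threshold.

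**Figure D1:**
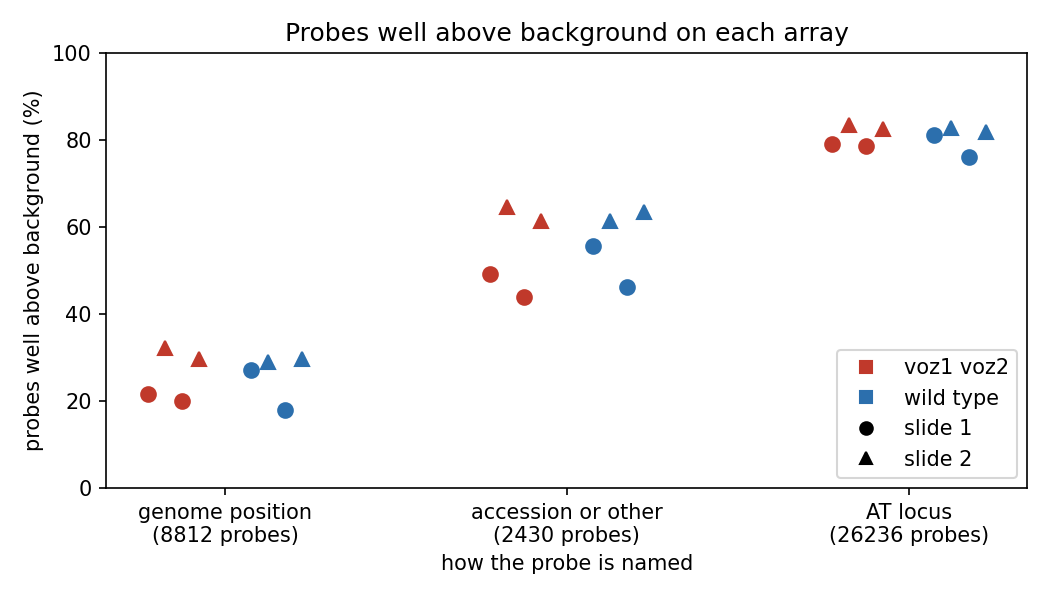
Percent of probes well above background on each of the 8 arrays (y axis) for probes named by a genome position, by an accession or another name, or by an AT locus (x axis). Each point is 1 array, red for voz1 voz2 and blue for wild type, circles for slide 1 and triangles for slide 2. Position-named probes lie between 18.0% and 32.1%, with slide 2 above slide 1 in both genotypes.

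Of the 2281 tested position-named probes, 99 differed between voz1 voz2 and wild type, 39 higher and 60 lower in the mutant. They are 4.34% of those tested. Of all 24599 features in the fit 4.44% passed the same threshold, so in this fit their share was close to that background. With normexp background correction it was below it, at 33 of the 2281 beside 1208 of the 24599. Among locus-named genes 4.49% passed (2.89% higher, 1.59% lower, 3.12% at 2-fold or more), and among accession-named probes 3.81% (1.69% higher, 2.11% lower, 3.03% at 2-fold or more). For the higher direction alone the share was 1.71% of position-named probes beside 2.72% of all features, and for the lower direction 2.63% beside 1.72%. The called position-named probes that also differed by 2-fold or more numbered 65 (25 higher, 40 lower), which is 2.85% beside a background of 3.09%. The groups did not overlap in 365 of the 2281, or 16.0%, beside 16.3% of all features. Calls were made on every chromosome, 8 higher and 16 lower on chromosome 1, 3 and 12 on chromosome 2, 10 and 11 on chromosome 3, 8 and 6 on chromosome 4, and 10 and 15 on chromosome 5. They were 3.83%, 3.83%, 4.84%, 4.86% and 4.63% of the tested probes of chromosomes 1 to 5, beside 4.44% of all features. Of the 12 lower on chromosome 2, 9 lay in a stretch described below, and the rest of that chromosome had 3 higher and 3 lower. By orientation the calls were 17 higher and 32 lower among forward probes (4.11% of those tested), and 22 and 28 among reverse ones (4.59%).

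The direction split depended on scaling. Of the called position-named probes 39.4% were higher with the 75th percentile, 48.6% of 105 with quantile scaling, 30.6% of 72 with median scaling and 42.4% of 33 with normexp background correction. Median scaling moved the median of all features to -0.15 and the deposited values to -0.37, against -0.030 with the 75th percentile. The median difference of the tested position-named probes was -0.15, so it was below that of all features, and it was -0.26 with median scaling and -0.020 with normexp, where the median of all features was -0.010. It was below 0 in each of 5 bands of signal level, at -0.15, -0.12, -0.15, -0.24 and -0.11 by rising level, where locus-named genes in the same bands had medians of 0.039, 0.095, -0.0010, -0.037 and -0.049. Accession-named probes had a median of -0.30 over 1419 tested probes. With the replicate number as a block 340 position-named probes passed (109 higher, 231 lower), 14.9% beside a background of 13.5%. With slide as a block 389 did (141 higher, 248 lower), 17.1% beside 16.1%. Neither slide alone gave a call in limma, among the position-named probes or over all features. The count of 99 fell to between 28 and 56 when any of the voz1 voz2 arrays or wild type replicate 1 or 4 was left out, was 76 without wild type replicate 3 and 133 without wild type replicate 2.

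**Figure D2:**
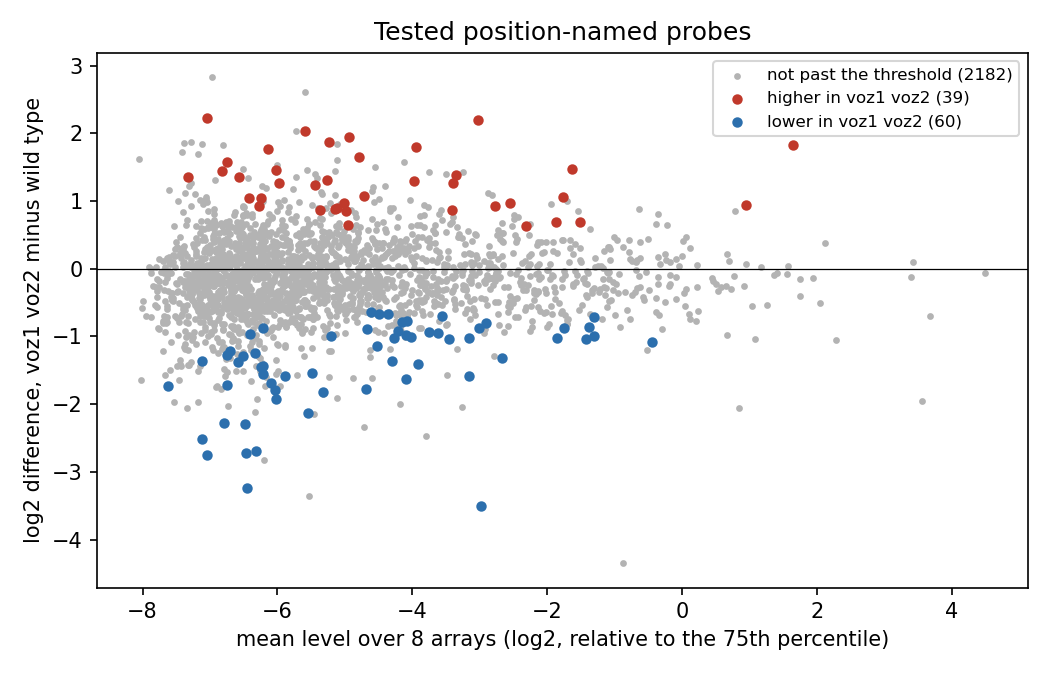
Mean level over the 8 arrays (x axis, log2 relative to the 75th percentile) and log2 difference, voz1 voz2 minus wild type (y axis), of the 2281 tested position-named probes. Red points are the 39 called higher and blue points the 60 called lower. Most called probes lie at low levels, as do most tested ones. The lowest of 5 level bands holds 1556 of the 2281 tested probes, 24 of the 39 called higher and 30 of the 60 called lower. The lowest point, at -4.35, is not past the threshold. Differences of probes that were not well above background in 1 genotype are drawn as fitted.

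The 10 largest rises among called probes detected in both genotypes lay between 1.46 and 2.19 on the log2 scale. Groups that do not overlap were a condition of this choice. The probe at chr2:2640-2699 (A_84_P726517, forward) had levels of 2.43, 2.56, 2.34 and 2.94 in voz1 voz2, against 0.42, 0.57, 0.85 and 1.12 in wild type. It was higher by 1.83 (SE 0.20, limma adjusted p = 0.0041), a 3.55-fold difference, with 4 of 4 mutant arrays above every wild type array. Normexp gave 1.84 and slides 1 and 2 alone 1.75 and 1.91, and the call held without any single array. The tip of this chromosome arm is known in Arabidopsis to adjoin an array of ribosomal RNA genes. Whether the probe matches such a repeated sequence was not tested.

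The largest of these rises was that of A_84_P735768 at chr1:588287-588346 (reverse), with -1.26, -2.14, -1.73 and -2.59 in voz1 voz2 against -4.10, -4.56, -3.60 and -4.24 in wild type. All 4 mutant arrays lay above all 4 wild type arrays, by 2.19 on average (SE 0.31, adjusted p = 0.010). A_84_P721470 at chr1:10815075-10815134 (reverse) averaged -3.04 ± 0.29 in voz1 voz2 and -4.84 ± 0.25 in wild type (SD, n = 4 each), higher by 1.79 (SE 0.20, adjusted p = 0.0040). These 2 probes, like the one near the start of chromosome 2, kept their calls with normexp and without any single array. Their normexp differences were smaller, at 1.16 for A_84_P735768 and 0.73 for A_84_P721470. The other 7 rises were A_84_P730288 (2.04), A_84_P735806 (1.95), A_84_P703501 (1.87), A_84_P727289 (1.77), A_84_P724603 (1.66), A_84_P722311 (1.47) and A_84_P718048 (1.46), on chromosomes 3, 5, 4, 4, 1, 5 and 4, with adjusted p of 0.017 to 0.039. In wild type A_84_P730288 and A_84_P727289 were well above background on 2 arrays and A_84_P703501 and A_84_P718048 on 3. Their sizes rest in part on wild type signals at background and are uncertain, and normexp gave 0.40, 0.38, 0.45 and 0.26. Each of the 7 lost its call without some single array. That was voz1 voz2 replicate 3 for A_84_P727289 (adjusted p = 0.053) and replicate 2 or 3 for A_84_P730288 (0.051 and 0.052). It was any voz1 voz2 array for A_84_P735806 (0.060 to 0.080), any voz1 voz2 array or wild type replicate 4 for A_84_P724603 (0.054 to 0.084), and these or wild type replicate 1 for A_84_P722311 (0.051 to 0.068). For A_84_P703501 it was any array but voz1 voz2 replicate 4 and wild type replicate 1 (0.061 to 0.105), and for A_84_P718048 any but voz1 voz2 replicate 1 and wild type replicate 2 (0.057 to 0.108). With normexp the 10 rises had values of 0.26 to 1.84 and 6 of them passed.

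The 10 largest falls, chosen in the same way among called probes detected in both genotypes, lay between -3.50 and -1.79. A_84_P14629 at chr3:16524216-16524275 (reverse) had -4.76, -5.62, -5.43 and -3.12 in voz1 voz2, against -0.80, -1.95, -1.75 and -0.42 in wild type. Mutant replicate 4 was the nearest to wild type, and the groups did not overlap. The difference was -3.50 (SE 0.58, adjusted p = 0.019), an 11.3-fold lower signal, and this probe was well above background on all 8 arrays. Normexp gave -1.90 and kept the call. The call did not hold without voz1 voz2 replicate 1, 2 or 3 or wild type replicate 1 or 4 (adjusted p 0.053 to 0.056). A_84_P709686 at chr3:22625566-22625625 (reverse) had the smallest adjusted p of the position-named probes, 0.0020. Its levels were -7.17, -6.65, -7.27 and -6.86 in voz1 voz2, against -5.18, -4.98, -5.27 and -4.84 in wild type, a difference of -1.92 (SE 0.18). Every mutant array lay below every wild type array, and 2 of the mutant arrays were well above background. Its size thus rests in part on mutant signals at background and is uncertain, and normexp gave -0.35 (limma adjusted p = 0.044).

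A_84_P20286 at chr3:12012085-12012144 (reverse) averaged -7.93 ± 0.32 in voz1 voz2 and -5.66 ± 0.49 in wild type, and A_84_P722007 at chr1:24129752-24129811 (forward) -6.94 ± 0.34 in voz1 voz2 and -5.14 ± 0.46 in wild type (SD, n = 4 each). They fell by 2.28 (SE 0.27, adjusted p = 0.0053) and by 1.79 (SE 0.26, adjusted p = 0.011). The first was well above background on 1 voz1 voz2 array and the second on 3, and neither passed with normexp (-0.31, adjusted p = 0.078, and -0.34, adjusted p = 0.073). With A_84_P709686 they are the 3 of the 10 falls whose calls held without any single array. The other 6 were A_84_P179574 (-2.75), A_84_P722162 (-2.72), A_84_P714593 (-2.69), A_84_P704129 (-2.29), A_84_P703355 (-2.13) and A_84_P709113 (-1.82), with adjusted p of 0.022 to 0.037. Of these, A_84_P179574, A_84_P722162 and A_84_P714593 were well above background on 1 of 4 voz1 voz2 arrays each, so their sizes rest on mutant signals at background and are uncertain, and normexp gave -0.26, -0.40 and -0.44. A_84_P704129 and A_84_P703355 were so on 3 mutant arrays and A_84_P709113 on 4. The calls of these 6 were lost without voz1 voz2 replicate 1, 2 or 3 or wild type replicate 1 or 4 for A_84_P179574 (0.058 to 0.068), and without the same arrays but voz1 voz2 replicate 1 for A_84_P722162 (0.062 to 0.066). For A_84_P704129 the arrays were voz1 voz2 replicate 1, 2 or 4 or wild type replicate 1 or 4 (0.061 to 0.082), and for A_84_P709113 these but wild type replicate 4 (0.052 to 0.066). A_84_P714593 lost its call without any array but voz1 voz2 replicate 2 and wild type replicate 3 (0.051 to 0.101), and A_84_P703355 without any but voz1 voz2 replicate 4 and wild type replicate 2 (0.052 to 0.080). Normexp, which adds an offset of 50 to the signal, gave -1.90 to -0.26 for the 10 falls, and A_84_P14629, A_84_P709686 and A_84_P714593 passed.

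**Figure D3:**
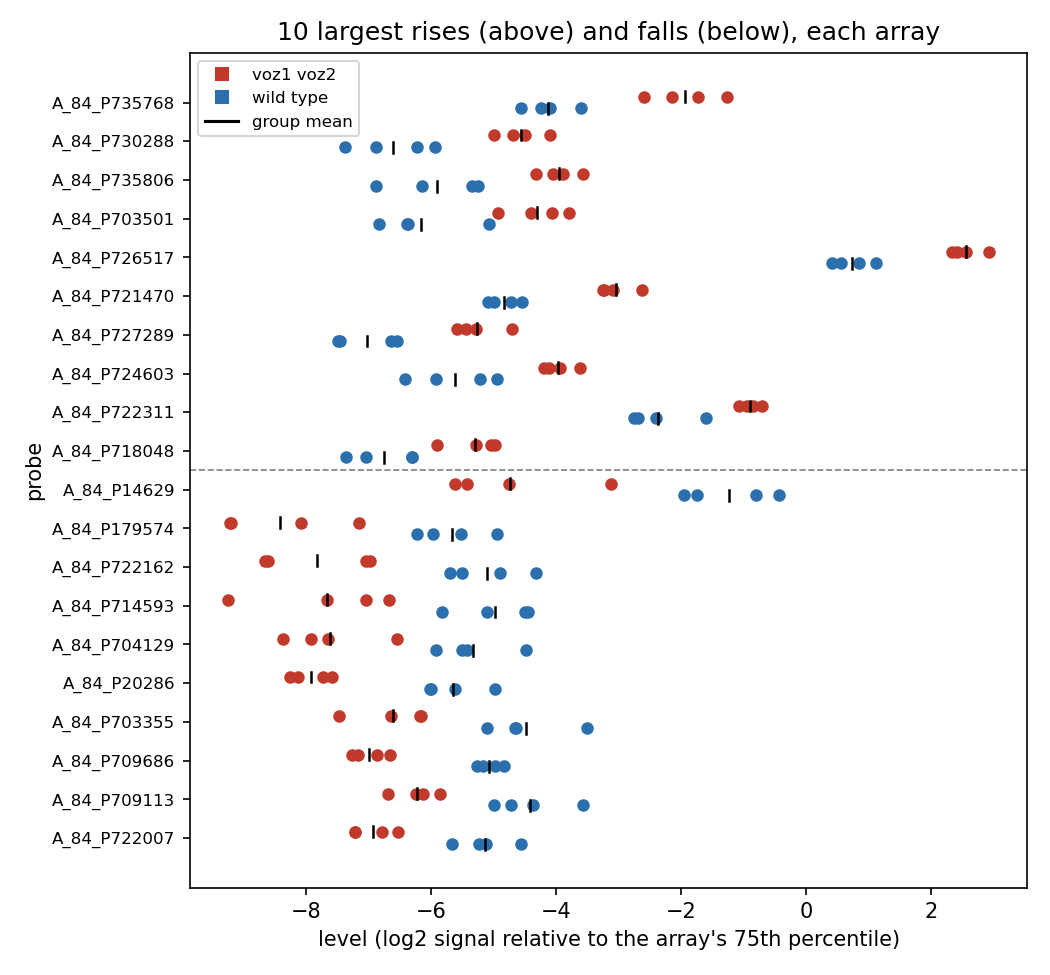
Levels on each array (x axis, log2 signal relative to the array's 75th percentile) of the 10 position-named probes with the largest rises, above the dashed line, and the 10 with the largest falls, below it (y axis). Red points are the 4 voz1 voz2 arrays, blue points the 4 wild type arrays and black bars the group means. These are called probes detected in both genotypes, and non-overlapping red and blue points were a condition of their choice.

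Of the called probes, 4 were well above background in 1 genotype alone, so their folds are bounds that set the bright group's mean against each dim array's lowest signal well above background, or the probe's own signal where that was higher. A_84_P730141 at chr5:17845558-17845617 (forward) was at -7.09, -8.19, -9.05 and -7.98 in voz1 voz2, not well above background, against -4.77, -5.74, -4.15 and -4.69 in wild type. It was at least 6.34-fold lower in voz1 voz2 (adjusted p = 0.0095), and A_84_P726295 at chr1:9849152-9849211 at least 3.14-fold lower (adjusted p = 0.038). In the other direction A_84_P718558 at chr5:2397214-2397273 was at least 2.40-fold higher (adjusted p = 0.011) and A_84_P702129 at chr2:462440-462499 at least 2.25-fold higher (adjusted p = 0.0073), both not well above background in wild type. The call of A_84_P726295 was lost without voz1 voz2 replicate 1, 2 or 4 or wild type replicate 1, 3 or 4 (0.078 to 0.103), and the other 3 held without any single array. With normexp A_84_P730141 alone of the 4 passed (-0.51, adjusted p = 0.041). Over all tested probes, 8 were well above background on the 4 mutant arrays and no wild type array, and 4 the reverse. A probe of that kind passed the filter only through the genotype in which it was bright.

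Other probes with the smallest p on their chromosomes were A_84_P725945 on chromosome 3, which fell by 1.68 (SE 0.19, adjusted p = 0.0044), A_84_P735613 on chromosome 4, which fell by 0.99 (SE 0.13, 0.0067), and A_84_P728305 on chromosome 1, which fell by 1.29 (SE 0.18, 0.0098). On chromosome 5 A_84_P733984 fell by 0.88 (SE 0.12, 0.0091) and A_84_P725684 rose by 1.39 (SE 0.20, 0.010). A_84_P735613, at chr4:2507586-2507645 (forward), stood at -5.70 ± 0.15 in voz1 voz2 and -4.71 ± 0.06 in wild type (SD, n = 4 each). In voz1 voz2 A_84_P725945 and A_84_P733984 were well above background on 2 of 4 arrays and A_84_P728305 on 3. A_84_P733984 was so on 3 wild type arrays. The sizes of these falls rest in part on signals at background and are uncertain. Normexp gave -0.27 for A_84_P725945, -0.11 for A_84_P733984, -0.17 for A_84_P728305 and -0.27 for A_84_P735613. The calls of these 5 probes held without any single array, and with normexp only that of A_84_P725684 did (0.67, adjusted p = 0.011). By contrast, that of A_84_P713975 on chromosome 4, which rose by 0.93 (SE 0.16, 0.019), was lost without voz1 voz2 replicate 1, 2 or 3 or wild type replicate 4 (0.057 to 0.063). Just inside the threshold stood A_84_P731477 (-0.71, adjusted p = 0.0485) and A_84_P725601 (-0.70, 0.0496), and just outside it A_84_P702788 (adjusted p = 0.0508) and A_84_P730357 (-1.13, 0.0509). The first pair lost its calls when any array except wild type replicate 2 was left out. A_84_P702788 at chr1:8352943-8353002 was well above background on the 4 mutant arrays, at -5.26, -5.99, -5.10 and -5.88, and on no wild type array, at -7.56, -9.62, -6.76 and -9.62. Its size is therefore a bound, at least 3.16-fold higher in voz1 voz2, and it passed with the replicate number (0.023) or slide (0.0078) as a block. A_84_P730357 also passed with either block (0.031 and 0.032).

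The lowest estimate among the tested probes had no call. A_84_P728206 at chr5:7891337-7891396 (reverse), chosen after its values were seen, had -3.50, -4.72, -5.25 and 1.28 in voz1 voz2, against 0.37, 0.86, 1.74 and 2.25 in wild type. Mutant replicates 1 to 3 lay below every wild type array, and mutant replicate 4 lay within the wild type range. The estimate was -4.35 (SE 1.32, 95% interval -7.36 to -1.34, adjusted p = 0.097), and without mutant replicate 4 it was -5.79 (adjusted p = 0.0059). The replicate block also took it past the threshold (0.049), and the slide block did not (0.061).

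Called probes stood close together in 4 places, each with 2 calls no more than 2 kb apart. At chr5:2396818-2397273, over 456 bases, 2 reverse probes rose. A_84_P735806 had -3.57, -4.32, -4.05 and -3.89 in voz1 voz2 against -5.25, -6.15, -5.34 and -6.88 in wild type, and A_84_P718558 had -5.58, -6.59, -5.98 and -5.61 in voz1 voz2 against -7.60, -7.76, -8.51 and -8.78 in wild type. The first was higher by 1.95 on the log2 scale (SE 0.37, adjusted p = 0.028). The second was not well above background on any wild type array and passed the filter only through voz1 voz2, so its size is the bound of at least 2.40-fold given above. At chr1:16641304-16641474, over 171 bases, the reverse probes A_84_P710784 and A_84_P722317 fell by 0.98 (SE 0.15, adjusted p = 0.015) and 1.0 (SE 0.16, adjusted p = 0.016). The first lost its call without voz1 voz2 replicate 1 or 3 (0.051 each) and the second without replicate 2 (0.052), and with normexp neither passed (-0.35 and -0.45).

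The other 2 such places were on chromosome 2. At chr2:3247549-3247994 the reverse probes A_84_P723295 and A_84_P733937 fell by 0.87 (SE 0.18, adjusted p = 0.036) and 1.04 (SE 0.18, adjusted p = 0.023), and A_84_P712075 between them had -0.85 (SE 0.21) at an adjusted p of 0.062, which the replicate block lowered to 0.026 and the slide block to 0.027. At chr2:3424862-3425221 the forward probes A_84_P704771 and A_84_P726333 fell by 0.99 (SE 0.22, adjusted p = 0.046) and 1.04 (SE 0.19, adjusted p = 0.026). A_84_P726333 had -1.60, -2.14, -1.76 and -2.28 in voz1 voz2, against -1.0, -0.88, -1.10 and -0.64 in wild type. The next probe along, A_84_P705595 at chr2:3425366-3425425, chosen after its values were seen, had 2.42, 1.29, 2.15 and 1.19 in voz1 voz2 against 2.80, 2.32, 3.21 and 2.90 in wild type. Its groups overlapped by 1 mutant array, with an estimate of -1.04 (SE 0.32) at an adjusted p of 0.102, which the replicate block lowered to 0.045 and the slide block to 0.024. The calls were lost for A_84_P723295 when any array except wild type replicate 2 was left out (0.065 to 0.097), and for A_84_P704771 without any but wild type replicate 3 (0.066 to 0.117). They were lost for A_84_P733937 without voz1 voz2 replicate 1, 2 or 3 or wild type replicate 4 (0.052 to 0.073) and for A_84_P726333 without voz1 voz2 replicate 2, 3 or 4 or wild type replicate 1 or 4 (0.056 to 0.080).

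These 2 places belong to a stretch of chromosome 2 in which position-named probes were detected far more often than elsewhere. It was chosen after the values were seen, as the windows of 100000 bases with over 20 tested probes, so its values are a description without a test. Those windows numbered 3, with 25 to 32 tested probes each, and adjoin each other at chr2:3200001-3500000, while no other window held more than 19. Of 96 position-named probes there, 87 (90.6%) were tested, against 25.2% of all others. The pericentromeric part of chromosome 2 of Col-0 is known to carry a large insertion of mitochondrial DNA. Whether these coordinates fall within it was not tested, as the build is not given, and a probe to such a copy cannot tell its RNA from that of the organelle.

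In the stretch, 78 of 87 differences were below 0, with a median of -0.65 and a range of -1.78 to 0.85. Estimates below 0 made up 60.8% of all tested position-named probes and 52.8% of all features. The threshold was passed by 9 of the 87 probes, all lower, where 1.72% of all features were called lower. Outside it 39 probes were higher and 51 lower, the median over 2194 tested probes was -0.13, and that of the 305 others on chromosome 2 was -0.12. The mean level over the 87 probes was -3.58, -3.89, -3.55 and -3.50 on the voz1 voz2 arrays, against -3.18, -3.12, -2.95 and -2.75 on the wild type arrays, so the genotypes did not overlap. Forward and reverse probes had medians of -0.70 (53 probes) and -0.59 (34 probes). The median was -0.45 on slide 1 and -0.83 on slide 2, and -0.29 to -0.98 over quantile, median, normexp and deposited values. Leaving out single arrays gave medians of -0.75 to -0.53, and the 9 calls became 0 without wild type replicate 4 and 1 without voz1 voz2 replicate 1, 2 or 3, 4 without wild type replicate 1 or 3 and 5 without voz1 voz2 replicate 4. Of other settings, the deposited values gave 0 lower calls in the stretch, no filter 1, normexp 6, median scaling 7 and quantile scaling 11. With slide as a block 35 passed and with the replicate number 32, all lower, where 16.1% and 13.5% of all features passed in either direction. Its lowest value, named after the values were seen, was that of A_84_P717821 at chr2:3299679-3299738, which fell by 1.78 (SE 0.32, adjusted p = 0.023). Sets of locus-named genes outside the naming rule were set beside the stretch, as a description. The 57 tested genes whose names begin with AT2G07 had a median of -0.47, with 51 below 0, 6 lower and 0 higher past the limma threshold. Whether they lie within the stretch was not tested. Of all locus-named genes 50.6% were below 0 and 1.59% were called lower. The mean levels of the 57 AT2G07 genes were -2.31, -2.55, -2.33 and -2.26 in voz1 voz2, against -2.04, -2.06, -1.79 and -1.82 in wild type. Only 4 genes named as mitochondrial (ATMG) were tested, with a median of -0.40, 3 of 4 below 0 and no call. The 1 tested gene named as chloroplast (ATCG) went the other way, at 0.21 without a call. In bulk seedlings, fewer cells or organelles of a kind and less RNA in each cannot be told apart.

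**Figure D4:**
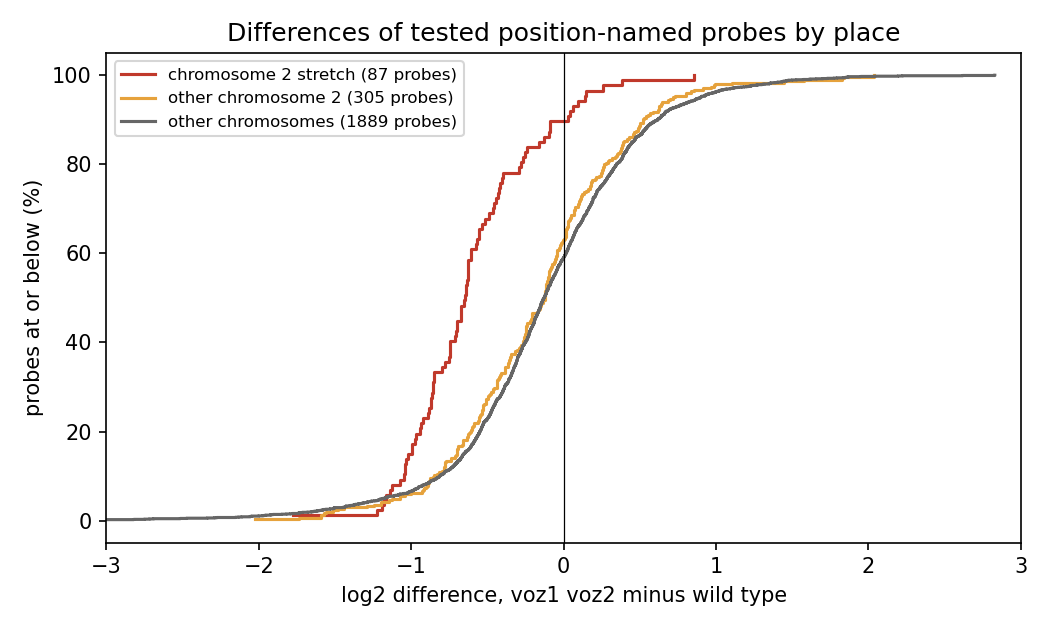
Cumulative share of tested position-named probes (y axis, percent) at or below each log2 difference, voz1 voz2 minus wild type (x axis), for the 87 probes of the chromosome 2 stretch, the 305 others on chromosome 2 and those on the other chromosomes. The curve of the stretch lies to the left, with 78 of 87 probes below 0 and a median of -0.65. The x axis ends at -3 and 3.

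The rule for signal level named A_84_P723453 (chr5:10186377-10186436), A_84_P736161 (chr3:13881242-13881301) and, on chromosome 2, A_84_P736313, A_84_P719430 and A_84_P710569. Array signal depends on each probe's own sequence, so the rule serves only to choose probes, and their levels say nothing of one RNA against another. A_84_P723453 averaged 4.47 ± 0.34 in voz1 voz2 and 4.53 ± 0.37 in wild type (SD, n = 4 each), a difference of -0.057 (95% interval -0.60 to 0.49). A_84_P736161 had 1.61, 1.50, 3.58 and 3.66 in voz1 voz2 against 4.51, 4.76, 3.28 and 5.62 in wild type, and its groups overlapped (difference -1.95, SE 0.66, adjusted p = 0.126). A_84_P719430 and A_84_P710569 had differences of 0.098 and -0.13 with overlapping groups. A_84_P736313 had no value on 3 arrays because of outlier flags, and its difference was -0.70 (SE 0.28, adjusted p = 0.220) over the other 5. None of the 5 passed under the replicate or slide block.

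Neighbouring probes tended to share their sign. Among 292 pairs of tested position-named probes whose midpoints lie within 1 kb, 206 (70.5%) had the same sign, and the correlation of their differences was 0.61. The share was 71.9% of 231 pairs of the same orientation (r = 0.65) and 65.6% of 61 pairs of opposite orientation (r = 0.42). Among 1144 pairs more than 5 kb and up to 20 kb apart it was 58.2% (r = 0.091). Outside the chromosome 2 stretch the shares were 68.6% of 229 pairs within 1 kb (r = 0.60) and 48.7% of 770 pairs at the wider distance (r = -0.053). The points share arrays and in part probes, so these are descriptions. Of the 99 called probes 21 had a tested neighbour within 1 kb, which gives 25 distinct pairs. The sign was the same in 24 of these, and in 11 of 11 outside the stretch. Both probes were called in 4 of the 25.

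**Figure D5:**
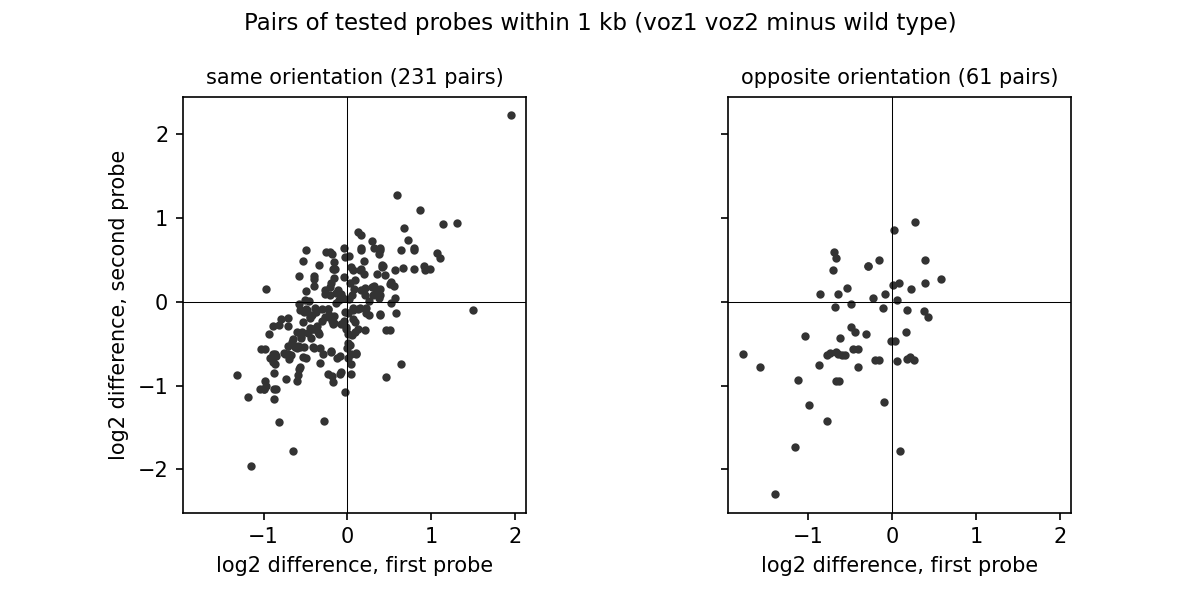
Log2 differences, voz1 voz2 minus wild type, of both members of each pair of tested position-named probes within 1 kb, the first probe by position on the x axis and the second on the y axis. The left panel holds the 231 pairs of the same orientation (r = 0.65) and the right panel the 61 pairs of opposite orientation (r = 0.42).

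Some position-named probes overlap a probe of the opposite orientation, by 1 to 60 bases. In 149 pairs neither probe was tested, in 44 a single probe was, and in 12 both were. Of those 12, 10 had the same sign and 4 lie in the chromosome 2 stretch. At chr2:3186717-3186776 and chr2:3186719-3186778, which share 58 bases, A_84_P724409 had -1.57 (SE 0.42, adjusted p = 0.073) and its opposite partner A_84_P719099 had -0.78 (SE 0.22, adjusted p = 0.079). Near chr3:22214882-22214941 the fall of A_84_P704129 (-2.29) was accompanied by -1.40 (SE 0.48, adjusted p = 0.130) at A_84_P740012, which overlaps it by 6 bases. The 2 pairs of unlike sign share 1 probe on chromosome 4, A_84_P739692, which had -0.29 (SE 0.20), while both of its overlapping partners had 0.42 (SE 0.22) and 0.43 (SE 0.22) without a call. All 4 pairs of the same orientation with both probes tested had the same sign, among them A_84_P702542 and A_84_P718327, which share 31 bases and had -0.17 each.

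A single position-named probe, A_84_P223649 at chr1:8755137-8755196, is spotted 10 times on every array and gives the spread between spots. Its level was -2.78, -2.42, -2.37 and -2.43 in voz1 voz2, against -2.72, -2.18, -2.50 and -1.83 in wild type, with a difference of -0.19 (SE 0.21, adjusted p = 0.634). The SD of log2 signal over its 10 spots was 0.037 to 0.059 on the 4 arrays of slide 2. On slide 1 it was 0.93 on voz1 voz2 replicate 3 and 0.19 to 0.32 on the other arrays. The spots of that replicate ran over log2 signals of 7.50 to 10.6 with a mean of 7.97, nearer the low end. Spot error of this probe was thus larger on slide 1, the slide with fewer position-named probes above background.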

How the data were processed

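Per the file headers, the deposited values are intensity readings of single spots. The submitters' processing notes name Agilent Feature Extraction 9.1.3.1. The processed signal is background-subtracted, per the file headers. The flags for being well above background, saturation and outliers are scores of 0 or 1 in the same deposited files. The authors' deposited series table holds natural log values, which are the processed signal on that scale less 6.91 (mutant) or 6.42 (wild type), a step with no reason given in the sources used here, and served only as an alternative.

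Outlier spots (9 to 111 per array) were left out, no spot was saturated, and 27 tested position-named probes lacked a value on some array. The deposited intensity was turned into log2 values, repeated spots were averaged, and the 75th percentile of the array was taken off. Features well above background on at least 4 of 8 arrays were tested with limma 3.58.1 (lmFit, eBayes, two-sided) in R 4.3.3, the brightest probe standing for a locus, with Benjamini-Hochberg adjustment over all 24599 features and a threshold of 0.05. The steps were tested on simulated data with independent arrays and no shared slide effect, so that test does not cover such an effect. Between 60.4% and 70.3% of all probes per array were well above background. The number of arrays limits the precision, and no array duplicated another (highest correlation 0.99).

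Same-numbered arrays of the genotypes, which always shared a slide, deviated together (correlations 0.32, 0.51, 0.46 and 0.61), which counts as pairing. Same-slide arrays of other numbers did so too, at 0.27 to 0.54, and arrays on different slides had -0.59 to -0.23. The pairing thus follows the slide at least in part. The main fit and the fits without single arrays do not include it. Normexp used the median spot signal, as the files hold no mean spot signal.

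Named probes follow a rule. It takes the 10 largest rises and falls among called, non-overlapping probes detected in both genotypes, up to 3 bounds per direction, the 5 highest mean levels, runs of calls no more than 2 kb apart, the 3 smallest p per chromosome and the 2 probes on each side of the threshold. The members and lists were chosen with earlier results of these data known.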

Additional observations from a re-analysis of the deposited data

Results flagged for a closer look

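Dixon's test was run on the 96 groups of 4 arrays of the named position-named probes that had all 4 values, and chance flags about 1 in 20 such groups. It marked 3 single arrays, all of voz1 voz2. A_84_P722317 was at -4.76 on replicate 2, where the others lay between -4.45 and -4.41. A_84_P731477 was at -1.38 on replicate 1, with the others between -1.77 and -1.72. A_84_P223649, the probe with 10 spots, was at -2.78 on replicate 1, with the others between -2.43 and -2.37.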

How the results depend on the processing

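The count of 99 position-named probes past the threshold (39 higher, 60 lower) was 33 with normexp (14 and 19), 3 with the deposited values (0 and 3), 389 with slide as a block (141 and 248), 340 with the replicate block (109 and 231), and 0 on slide 1 or slide 2 alone. Over all 24599 features 1091 passed in the main fit, 1208 with normexp and 70 with the deposited values. With slide as a block 3955 of them passed, and with the replicate block 3314. With normexp the count thus rose over all features and fell among position-named probes. With a trend in eBayes 83 of 2281 passed beside 1245 of 24599, and with no filter 68 of 8812 beside 514 of 36907. The higher count was also outside 1.5 times its value with median scaling (22) and no filter (24). Leaving out 1 array gave totals of 28 to 133, 11 to 43 higher and 15 to 90 lower. Of the 99, 18 passed without any single array and 8 were lost whichever array was left out, 1 had the opposite sign with normexp, and none did under the other alternatives. Outside the chromosome 2 stretch, an alternative chosen after seeing the data, there were 39 higher and 51 lower. VOZ1 missed the threshold with the deposited values (-1.84, adjusted p = 0.143) and on slide 1 (-1.41) and slide 2 (-1.59), as did VOZ2 on slide 1 (-5.56) and slide 2 (-5.93). Signs turned for uncalled probes. A_84_P723453 had 0.048 with quantile scaling, 0.089 with normexp, 0.027 on slide 2 and -0.17 to 0.12 without single arrays. A_84_P719430 had -0.018 with median scaling, -0.24 in the deposited values and -0.017 on slide 2. A_84_P710569 had -0.33 to 0.085 without single arrays, above 0 without voz1 voz2 replicate 2 or 4 or wild type replicate 3, and A_84_P223649 had 0.038 on slide 1. The share of neighbouring pairs with the same sign was 72.1%, 70.5% and 68.4% within 500 bases, 1 kb and 5 kb (r = 0.67, 0.61 and 0.39), and 69.1%, 68.6% and 63.7% outside the stretch (r = 0.64, 0.60 and 0.33). Of the changes, fewer arrays within a slide follow from the alternative itself, and the cause of the others was not tested. The sizes of most of the largest falls, and of some of the largest rises, rest in part on signals close to background.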
